A study of Rattus norvegicus with 8 samples.

Results

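Corticosterone acts on the hippocampus through 2 nuclear receptors, and the 9 genes described here encode those receptors, the chaperones that fold them and the enzyme that regenerates their ligand inside cells. They were chosen by symbol: the receptors Nr3c1 and Nr3c2, the immunophilins Fkbp5 and Fkbp4, the chaperone genes Hsp90aa1, Hsp90ab1, Ptges3 and Stip1, and Hsd11b1. Of these 9 genes, 8 had 10 transcript rows among the 16266 rows analysed, and Hsp90aa1 was not analysed here. All 10 rows reached at least 1 FPKM (fragments mapped to a transcript, relative to its length and to the library's depth) in a group.

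RNAseq was performed on whole hippocampi of adrenalectomized (ADX) rats, which lack adrenal corticosterone. The labels give an age of 3 to 4 months, and the study's methods a younger one in weeks. In the vehicle group, 4 rats were infused with 0.45% saline for 30 min, and in the CORT group, 4 rats were infused with corticosterone-2-hydroxypropyl-β-cyclodextrin at 0.75 mg/mL. The labels date the samples to ZT 2, whereas the study's methods place the start of the infusion at ZT 2 and collection 2 h later. The strain is Sprague-Dawley in the labels and Lister hooded in the methods. All rats had drunk corticosterone in saline during recovery from surgery, and this was withdrawn before the infusion. The authors' group value, 1 FPKM per group and transcript, was used, so the differences below carry no spread between rats and no test, and the depth of each library is unknown.

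The glucocorticoid receptor (GR, Nr3c1) and the mineralocorticoid receptor (MR, Nr3c2) are ligand-activated transcription factors. Newly made receptor is held by HSP70 and passed through STIP1 (HOP) to HSP90, and PTGES3 (p23) stabilizes the mature complex that binds steroid. FKBP5 (FKBP51) in that complex lowers the affinity of GR for its ligand and slows its entry into the nucleus, whereas FKBP4 (FKBP52) links the receptor to dynein. Fkbp5 is itself a glucocorticoid target gene, and the MR of hippocampal neurons binds corticosterone with higher affinity than GR does.

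One sequence is shown for Fkbp5, the only row of the 10 past a 1.5-fold difference, and 1 short window each for Fkbp4 and Stip1, the only members with a heat-shock motif in the stretch searched. RefSeq sequences of the GRCr8 assembly covered 7 start sites of 6 of the 9 genes, and the 250 bases before each start were searched on both strands. GC boxes (GGGCGG) and the CCAAT box (CCAAT) stand in capitals for Fkbp5 (chr20:6543556-6543805, minus strand). The pairs of heat-shock units GAANNTTC and TTCNNGAA stand in capitals for Fkbp4 (chr4:163398037-163398066, minus strand) and Stip1 (chr1:213657655-213657684, minus strand), and no match in capitals overlaps another.
Fkbp5: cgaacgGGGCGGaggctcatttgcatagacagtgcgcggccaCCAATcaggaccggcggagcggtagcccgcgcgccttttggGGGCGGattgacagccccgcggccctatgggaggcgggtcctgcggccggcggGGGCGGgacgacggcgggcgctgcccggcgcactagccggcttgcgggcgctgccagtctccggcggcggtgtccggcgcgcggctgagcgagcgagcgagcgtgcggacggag
Fkbp4: ccgcttctctaGAAAGTTCtccgctcccgc
Stip1: ggtcccggcagcttctagtaggTTCCAGAA

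Each of the 7 stretches held at least 1 GC box, against 30.5% of all 33469 stretches of the same length. Fkbp5 had 3 GC boxes and 1 CCAAT box, which 34.0% of all stretches held. The pair GAANNTTC, present in 7.23% of all stretches, began 137 bases before the start of Fkbp4, and TTCNNGAA, present in 7.48%, began 8 bases before the start of Stip1. AGAACA, an arm of the glucocorticoid response element, was in none of the 7 stretches and in 17.5% of all. The GC content of the 7 ranged from 56.0% to 78.4%, with a median of 68.4% against 51.2% over all stretches, and each held at least 12 CpG dinucleotides against a median of 5. Over all stretches, 68.5% held fewer than 12, and the rest as many or more. The Fkbp5 stretch held 41 CpG, the highest of the 7.

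Fkbp5, the GR-restraining immunophilin, showed the largest difference of the 10 rows. Its row (ENSRNOT00000033119.5, chromosome 20 of rn6, 7976712 to 8019020) measured 18.6 FPKM after vehicle and 33.8 FPKM after CORT. The CORT value was 1.82-fold the vehicle value, a log2 difference of 0.86. This size was larger than that of 95.5% of the 15808 rows with at least 1 FPKM in a group, and larger than that of 98.9% of the 4768 rows within 2-fold of its level. Fkbp5 was below the main Nr3c1 row and Nr3c2 with vehicle and above both with CORT.

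At the threshold of 1.5-fold, 1 of the 10 rows was higher in the CORT group, against 4.00% of the 15808 rows, and 0 were lower, against 4.45%. At a lower threshold, a log2 difference of at least 0.32 in size, Fkbp5 and Nr3c2 were higher and the main Nr3c1 row was lower, that is 2 and 1 of 10 rows against 9.17% and 10.1% of all rows. No member was past 2-fold in either direction, against 1.78% higher and 1.77% lower over all rows. The median log2 difference of the 10 rows was 0.059, beside 0.023 over all rows.

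**Figure D1:**
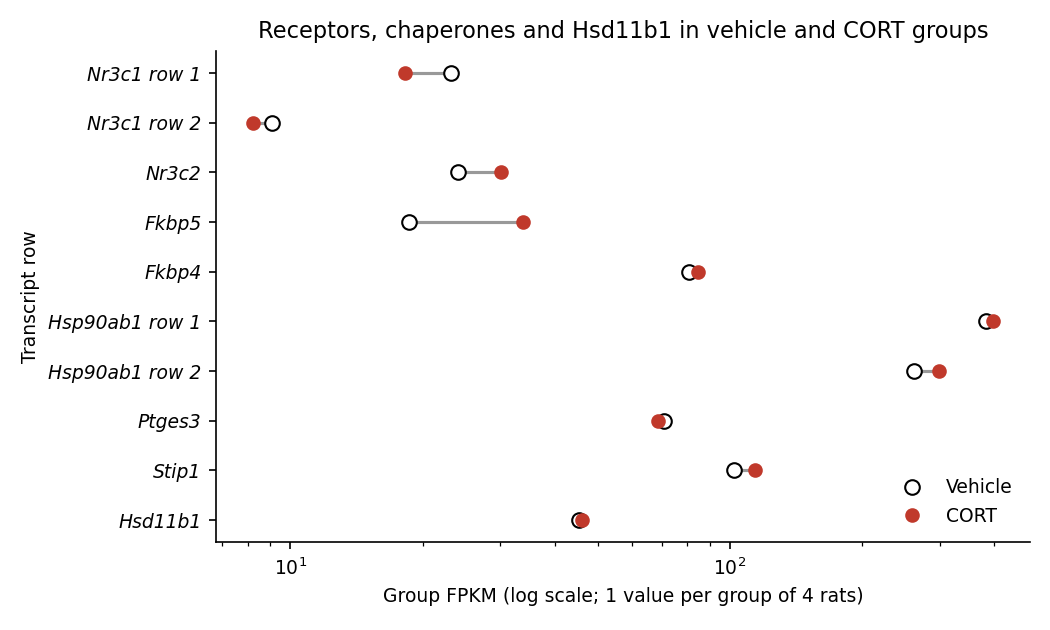
FPKM of the 10 transcript rows in the vehicle group (open circles) and the CORT group (filled circles) on a log axis, with 1 group value from 4 rats per circle and no error available. The gap is widest for Fkbp5 (18.6 to 33.8 FPKM), and the circles of Hsd11b1, Fkbp4, Ptges3 and the first Hsp90ab1 row nearly coincide.

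Fkbp4, the immunophilin that couples the receptor to dynein, was at 80.6 FPKM after vehicle and 84.5 FPKM after CORT (ENSRNOT00000008737.6, chromosome 4, 161748992 to 161757447). Its log2 difference was 0.07, and 43.2% of the 1952 rows within 2-fold of its level differed less. Fkbp4 was therefore the more abundant immunophilin per length in both groups. The ratio of Fkbp5 to Fkbp4 FPKM was 0.231 with vehicle and 0.400 with CORT, 1.73-fold higher in the CORT group.

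The transcripts of both receptors differed between the groups by less than 1.5-fold, and in opposite directions. The main Nr3c1 row (ENSRNOT00000044287.4, chromosome 18, 31728372 to 31749647) was at 23.2 FPKM after vehicle and 18.3 FPKM after CORT. Vehicle was thus 1.27-fold the CORT value, a log2 difference of -0.34 for CORT over vehicle. Of the 5218 rows within 2-fold of its level, 93.5% differed less. A second row with the symbol Nr3c1 (ENSRNOT00000019409.6, chromosome 18, 32669426 to 32670665) covers a locus of only 1239 bases, 920 kb away from the first. It was at 9.06 FPKM after vehicle and 8.22 FPKM after CORT, a log2 difference of -0.14, and 57.2% of the 5749 rows within 2-fold of its level differed less. Because the 2 loci do not overlap, it is uncertain whether the second row measures the receptor transcript, and a sum of both rows carries that doubt.

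Nr3c2, which encodes MR, was at 24.1 FPKM after vehicle and 30.2 FPKM after CORT (ENSRNOT00000052018.4, chromosome 19, 34448288 to 34752695). The CORT value was 1.252-fold the vehicle value, a log2 difference of 0.32, and 93.3% of the 4695 rows within 2-fold of its level differed less. With the main Nr3c1 row alone, the ratio of MR to GR FPKM was 1.04 with vehicle and 1.65 with CORT. With both Nr3c1 rows summed, it was 0.747 with vehicle and 1.14 with CORT. The CORT ratio was 1.59-fold the vehicle ratio in the first case and 1.52-fold in the second, whereas which receptor was the more abundant in the vehicle group depended on the second Nr3c1 row.

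**Figure D2:**
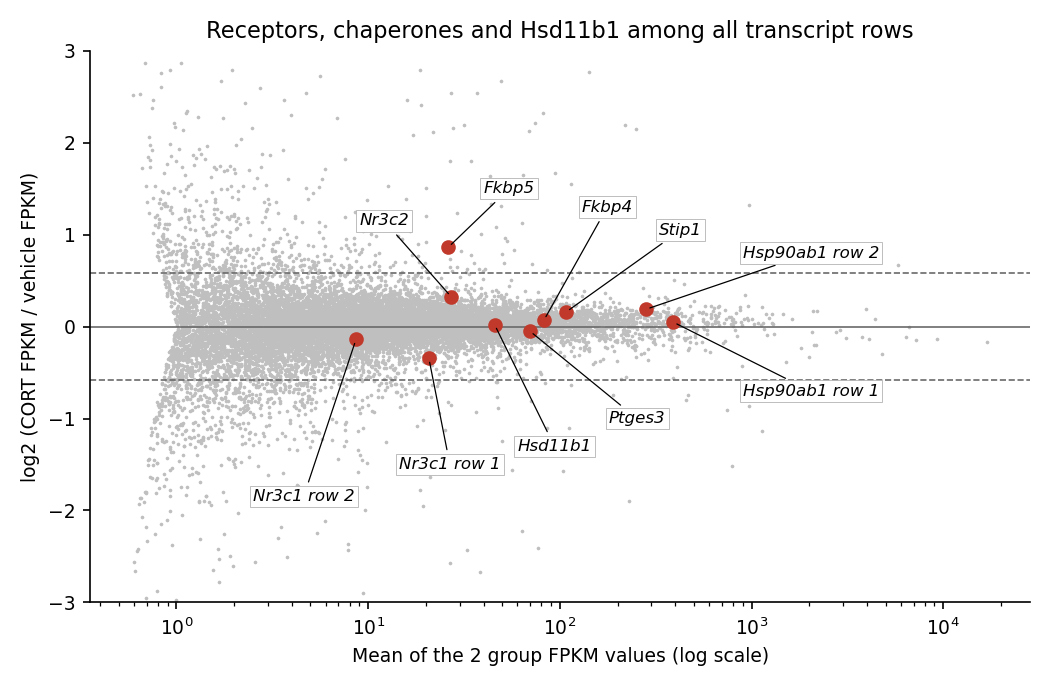
The log2 ratio of CORT over vehicle FPKM against the mean of the 2 group values on a log axis, with each grey point a transcript row of at least 1 FPKM in a group and the 10 member rows filled. Dashed lines mark 1.5-fold, and 69 rows beyond 3 on the log2 scale are not drawn. Fkbp5 (0.86) lies above the upper line and the other 9 rows lie between the lines.

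The chaperones that carry receptor maturation were among the most abundant transcripts, and the group values of each differed by less than 1.5-fold. Hsp90ab1, the constitutively expressed HSP90, had 2 rows on the same locus of chromosome 9 (17817720 to 17823243), between which the authors' software divides shared reads. The first (ENSRNOT00000026920.6) was at 383 FPKM after vehicle and 397 FPKM after CORT, and the second (ENSRNOT00000086986.1) was at 263 and 299 FPKM. Their log2 differences were 0.05 and 0.19, of which the first exceeded in size that of 27.2% of the 353 rows within 2-fold of its level, and the second that of 84.0% of 505 such rows. Summed, Hsp90ab1 was at 646 FPKM after vehicle and 696 FPKM after CORT, a log2 difference of 0.11, and the first row made up 59.3% of the vehicle sum and 57.0% of the CORT sum.

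Stip1, whose product bridges HSP70 and HSP90, was at 102 FPKM after vehicle and 114 FPKM after CORT (ENSRNOT00000028743.7, chromosome 1, 222274132 to 222293148). Its log2 difference of 0.16 exceeded in size that of 80.5% of the 1489 rows within 2-fold of its level. Ptges3, which encodes p23, was at 70.9 FPKM after vehicle and 68.5 FPKM after CORT (ENSRNOT00000003787.7, chromosome 7, 2479310 to 2497013). Its log2 difference of -0.05 was the only one below 0 among the chaperone rows, and 31.1% of the 2291 rows within 2-fold of its level differed less. In vehicle FPKM, the first Hsp90ab1 row exceeded 98.9% of all rows, Stip1 94.5%, Fkbp4 92.5% and Ptges3 91.4%.

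Hsd11b1, the reductase that regenerates active corticosterone from its inert 11-keto form, gave nearly equal group values. It was at 45.3 FPKM after vehicle and 46.0 FPKM after CORT (ENSRNOT00000007870.5, chromosome 13, 111926441 to 111972603). The log2 difference of 0.02 was the smallest of the 10 rows, and 14.1% of the 3263 rows within 2-fold of its level differed less. Hsd11b1 was above both receptors in each group.

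From highest to lowest in vehicle FPKM, the order was both Hsp90ab1 rows, Stip1, Fkbp4, Ptges3, Hsd11b1, Nr3c2, the main Nr3c1 row, Fkbp5 and the second Nr3c1 row. With CORT the first 6 places were held by the same rows, and Fkbp5 preceded Nr3c2 and the main Nr3c1 row. Without a spread between rats, it cannot be said which neighbours in this order differ.

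Other genes that act with the receptors were described by lists, each gene by its row with the highest mean FPKM. Among 23 other chaperones and co-chaperones, 20 had at least 1 FPKM in a group, and 0 of them were past 1.5-fold in either direction, a count near that of all rows (4.00% higher and 4.45% lower). The median log2 difference was 0.12, with 17 of 20 genes above 0, beside 55.3% of all rows. Bag3, a partner of HSP70 in selective autophagy, was at 7.06 FPKM after vehicle and 10.5 FPKM after CORT, a log2 difference of 0.57 that lies just inside the threshold. Dnajb1, an HSP40 that stimulates HSP70, was at 28.6 and 37.6 FPKM (0.39), and Hsf1, the heat-shock transcription factor, was at 16.6 and 18.9 FPKM (0.19). Bag1, a nucleotide exchange factor of HSP70, was lower with CORT at 33.6 FPKM against 40.2 FPKM with vehicle (-0.26).

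Of 17 coregulators of steroid receptors, 16 had at least 1 FPKM in a group and 0 were past 1.5-fold, again near the share of all rows, with a median log2 difference of 0.08. The largest differences were those of the p160 coactivators Ncoa3, at 5.38 FPKM after vehicle and 6.80 FPKM after CORT (0.34), and Ncoa2, at 6.34 and 7.67 FPKM (0.27). The acetyltransferase genes Ep300 (2.80 and 3.30 FPKM) and Crebbp (5.02 and 5.82 FPKM) followed at 0.24 and 0.21. Of the other receptors of the Nr3 subfamily, Esrra, Esrrg and Pgr had at least 1 FPKM, with log2 differences of 0.02, 0.19 and 0.17.

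Of 17 genes of local steroid supply and metabolism other than Hsd11b1, 9 had at least 1 FPKM in a group, and the other 8 were not analysed here. Of the 9, 0 were past 1.5-fold higher, against 4.00% of all rows, and 2 were past it lower, against 4.45%. Akr1c14, a hydroxysteroid dehydrogenase that acts on reduced steroids, was at 1.68 FPKM after vehicle and 0.770 FPKM after CORT, a log2 difference of -1.13 that rests on low values. Akr1c14 was kept only through its vehicle value, so the filter fixed its direction. Tspo, a mitochondrial translocator protein that is also abundant in glia, was at 13.0 FPKM after vehicle and 7.76 FPKM after CORT (-0.75). H6pd, which supplies the NADPH that HSD11B1 needs, was at 1.84 and 2.51 FPKM (0.45). Srd5a1, a reductase of corticosterone and other steroids, was at 15.2 and 13.3 FPKM (-0.19). The median log2 difference of these 9 genes was -0.07.

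Genes known to be induced by glucocorticoids gave a reference for the size of the Fkbp5 difference. Of 25 such genes other than Fkbp5, 24 had at least 1 FPKM in a group, of which 16 were past 1.5-fold higher, against 4.00% of all rows, and 1 was past it lower, against 4.45%, with a median log2 difference of 0.76. The list was written with earlier results of these data known, so its count and median, and the place of Fkbp5 among its genes, are no independent evidence. Among the genes higher with CORT, the largest differences were those of Pdk4, an inhibitor of pyruvate dehydrogenase (1.39 and 8.11 FPKM, 2.54), Sgk1, a kinase controlling ion transport (28.5 and 70.4 FPKM, 1.31), and Plekhf1, an endosomal protein (5.08 and 12.03 FPKM, 1.24). Of the 24 genes, 9 had a log2 difference above that of Fkbp5 and 15 one below it. Mt1, a metallothionein, had the second largest difference in size and went the other way, at 156 FPKM after vehicle and 52.7 FPKM after CORT (-1.57).

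**Figure D3:**
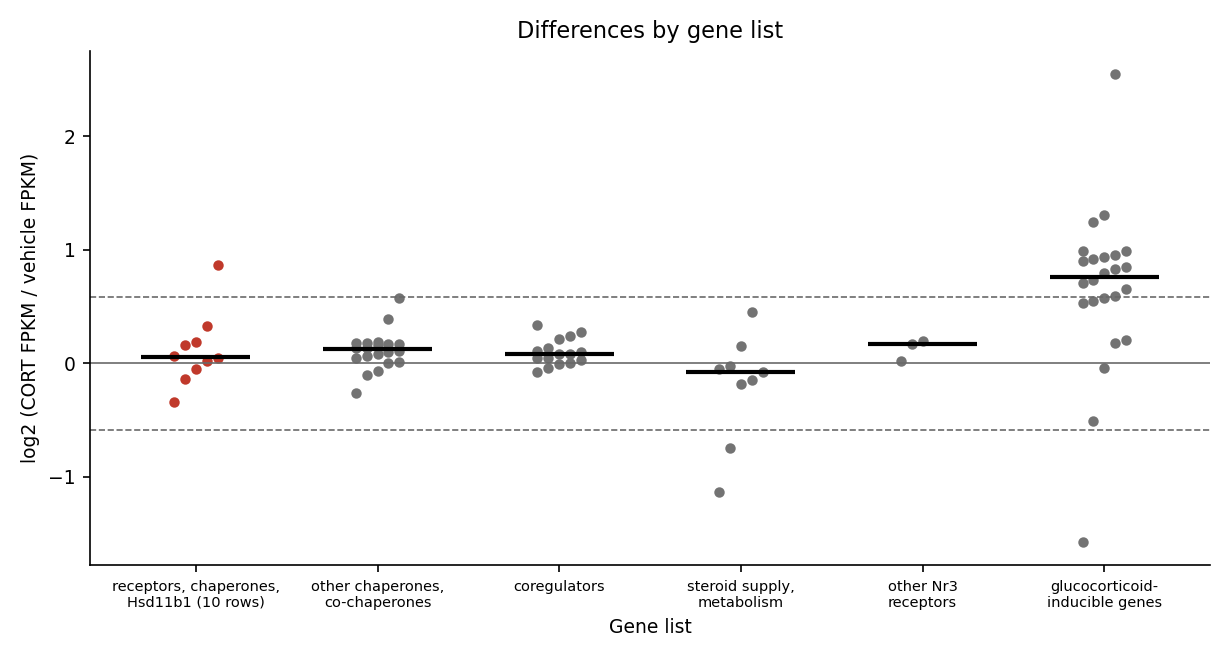
The log2 ratio of CORT over vehicle FPKM (y axis) for the 10 member rows and for each gene of the 5 lists with at least 1 FPKM in a group, with the median of each list as a bar and dashed lines at 1.5-fold. The medians of the member rows (0.059), other chaperones (0.12) and coregulators (0.08) lie near 0, and that of the glucocorticoid-inducible genes (0.76) lies above the upper line.

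Hippocampal neuron markers were abundant in both groups, among them Slc17a7 at 736 FPKM after vehicle and 794 FPKM after CORT, and the summed FPKM of the 8 measured markers was 1606 with vehicle and 1738 with CORT, with 1 marker higher past 1.5-fold. That marker was Zbtb20, a transcription factor gene (log2 difference 0.81), whereas Prox1, a marker of dentate granule cells, and Neurod6 were lower with CORT (-0.28 and -0.10). For comparison with the marker counts, 4.00% of all rows were past 1.5-fold higher and 4.45% past it lower. Markers of other tissues differed between the groups. The summed FPKM of 6 markers of thalamus and habenula was 27.3 with vehicle and 10.8 with CORT, with all 6 lower past 1.5-fold. For 7 markers of meningeal fibroblasts it was 1664 and 788, with 4 lower past 1.5-fold, and for 3 pineal markers it was 11.6 and 0.568, with all 3 lower. All 3 pineal markers, and Chrna3, Gpr151 and Chrnb4 of the thalamus and habenula list, were under 1 FPKM with CORT. They were kept only through their vehicle values, so the filter fixed their direction. Prkcd, Tcf7l2 and Lef1 of that list were over 1 FPKM in both groups (-1.24, -1.01 and -0.73). Ptgds alone made up 93.4% of the meningeal sum with vehicle, and the other 6 markers summed to 110.3 with vehicle and 82.2 with CORT, with Dcn slightly higher (0.09). The sums were 2425 and 1982 for 7 astrocyte markers, with 2 lower past 1.5-fold, Gfap (-0.91) and Aldh1l1 (-0.67). The difference between the sums rested on Gfap, since the other 6, mostly S100b (1066 and 1095 FPKM), summed to 1455 and 1465. Aqp4 was also lower (-0.51), and by sign 4 of the 7 markers were lower with CORT and 3 higher. The sums were 5097 and 4234 for 6 oligodendrocyte markers, with 0 past 1.5-fold, and 242 and 210 for 7 microglial markers, with 1 higher past it. Those of 5 endothelial markers were 81.5 and 69.0, and those of 6 choroid plexus markers, mostly Ttr (97.9% with vehicle), 6749 and 6736, with 0 past 1.5-fold in either list. By sign, 6 of 6 oligodendrocyte, 6 of 7 microglial, 4 of 5 endothelial and 4 of 6 choroid plexus markers were lower with CORT. Over all rows, 55.3% were higher. The part of these differences in the values of Nr3c1, Nr3c2, Fkbp5, Tspo and the other genes above was not tested. In whole tissue, fewer cells of a type and less RNA per cell cannot be told apart.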

How the data were processed

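Libraries were made by the authors with a stranded total RNA kit from hippocampi of 4 vehicle and 4 CORT rats. Per the labels' processing notes, CASAVA 1.8.2, TopHat2 2.0.10 and Cuffdiff 2.2.0 were used with the rn6 genome. The deposited FPKM values are 1 per group and Ensembl transcript, made by the authors with geometric normalization between libraries and corrections for multi-mapped reads, sequence bias and effective length. Rows with too few alignments had been removed by them. Whether counting used strand is not given in the sources used here. Loci are given as in the authors' table and span overlapping transcripts.

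Only the 2 FPKM columns were used. The table also holds the authors' fold changes, test statistics, p-values and q-values, which were not used. Log2 ratios of CORT over vehicle were computed without a pseudocount, and rows with at least 1 FPKM in a group were kept. With 1 value per group no test was run, and past the threshold means at least 1.5-fold. The code that counts rows was checked on simulated data with folds set well clear of the threshold, which says nothing about the precision of the counts. All 9 members were named, and of each list of partner genes the 4 with the largest absolute log2 difference (all 3 for the Nr3 receptors). Slc17a7, Zbtb20, Prox1, Neurod6, Ptgds, Dcn, Ttr and Gfap were named, and sums without Gfap or Ptgds computed, after their values were seen. The same holds for the naming of Aldh1l1, Aqp4, S100b, Chrna3, Gpr151, Chrnb4, Prkcd, Tcf7l2 and Lef1. List genes were matched by exact symbol. The members and lists were chosen with earlier results of these data known. The ratio of Hsp90ab1 to Hsp90aa1 had been planned and was not computed. Python 3.11.15, numpy 2.4.6, pandas 2.3.3 and matplotlib 3.10.9 were used.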

Additional observations from a re-analysis of the deposited data

How the results depend on the processing

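The count of member rows past the threshold was 1 at 1.5-fold, 3 at a log2 threshold of 0.32 and 0 at 2-fold, since Fkbp5 lies between 1.5-fold and 2-fold. A ratio, median or difference was taken as moved when it changed by over 0.1 on the log2 scale, and a count when it changed by over 1.5 times. With only the highest row of each symbol in place of summed rows, the ratio of MR to GR FPKM moved to 1.04 with vehicle and 1.65 with CORT, because the second Nr3c1 row was left out. With at least 1 FPKM required in both groups, 1 gene of steroid supply and metabolism was past 1.5-fold in place of 2, because Akr1c14 was dropped. The other 63 recomputed counts, medians and ratios, and all 58 recomputed log2 differences of single members, stayed within these limits, though not always equal. The settings were pseudocounts of 0.1 and 1 FPKM, other filters and centring on the median. Rows of a symbol were summed for the member rows only, so the lists were not recomputed that way. The ratios were recomputed only with the highest row of each symbol. Among the 63 values, the count of glucocorticoid-inducible genes past 1.5-fold in either direction was 17 and lay between 16 and 18. No list count was recomputed at another fold threshold, so this stability does not cover the threshold. Of the glucocorticoid-inducible list, only Pdk4, Sgk1, Plekhf1 and Mt1 were past 2-fold. Bag3 (0.57), Dnajb1 (0.39) and Ncoa3 (0.34) of other lists were past the lower log2 threshold of 0.32. For single members, and for some list values and ratios, part of the outcome was fixed in advance. A changed filter leaves the values of a row as they are, and summing cannot move a gene with 1 row. The ratio of Fkbp5 to Fkbp4 could not move, because each gene has 1 row. Filters could not change the coregulator list, because its genes with a row were over 1 FPKM in both groups. The limit of 0.1 is also wider than several of the differences checked. Hsd11b1, for example, went from 0.022 to -0.0016 with centring on the median and still counted as unmoved. Leaving out each rat in turn could not be run on group values. No paired analysis was possible because each group has a single column that names no rat. Because no value per rat or depth was used, the precision of each FPKM value is unknown.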

Other observations

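Both metallothionein genes of the glucocorticoid-inducible list, whose products bind zinc and copper, were lower in the CORT group value, unlike most of that list. Mt1 was at 156 FPKM after vehicle and 52.7 FPKM after CORT, and Mt2A was at 70.5 FPKM after vehicle and 49.5 FPKM after CORT, log2 differences of -1.57 and -0.51. Mt2A was chosen after its values were seen. Of the 24 measured genes of the list, Rhou was the only other with a log2 difference below 0, at -0.04. Astrocytes express metallothioneins, and the astrocyte marker Gfap, an intermediate filament gene, was at 970 FPKM after vehicle and 517 FPKM after CORT, while Slc1a2, the main glutamate transporter of astrocytes, was at 159 and 175 FPKM. Of the 7 astrocyte markers, 4 were lower with CORT, among them Aldh1l1 (-0.67) and Aqp4 (-0.51), and 3 were higher, namely Slc1a2, Gjb6 and S100b. These markers and Rhou were chosen for mention here after their values were seen. The relation of Gfap or the other markers to the metallothioneins was not tested.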
